A study of Homo sapiens with 9 samples.

Results

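The genes described here encode the classical axon guidance ligands and their receptors, 64 of the 22290 genes with values. They were chosen by symbol: every protein-coding row named as a semaphorin of classes 3 to 7, an ephrin, a Slit, a netrin or netrin-G, a plexin, a neuropilin, an Eph receptor, a Robo receptor, an UNC5 receptor or DCC. By role, 33 are ligands and 31 are receptors. RNA was sequenced from 9 libraries of total RNA from cells labelled IMR-32, an established human neuroblastoma line. Of these, 3 came from parental cells of wild-type genotype (PAR), 3 from cells labelled TRAP-1 knockdown (KD) and 3 from cells labelled TRAP-1 overexpression (OE), and TRAP-1 is a chaperone of the HSP90 family in mitochondria. The study compared each line with its parent to find networks that depend on TRAP-1. The KD and OE lines had been made earlier, and how many clones each holds is not given in the sources used here. The authors write that RNA was isolated in triplicate from each line. Nothing says that the 3 libraries of a group came from separate cultures, so the p-values below measure only the spread between these libraries, which may be technical. The values used are rlog values, the regularized log2 scale of DESeq2, which corrects for library size and pulls each gene's values toward their average, so a difference between groups is a difference on the log2 scale that understates the change, more so at low levels. Depth per library is unknown from such values. A gene is called here when its limma test gave a Benjamini-Hochberg (BH) adjusted p under 0.05 over all 22290 genes.

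Growing axons steer by ligands that attract or repel the growth cone, the motile tip of the axon. Secreted semaphorins bind neuropilins, which signal through plexins, while membrane semaphorins bind plexins directly. Ephrins are anchored in the membrane and signal to Eph receptor tyrosine kinases on touching cells, Slits repel through Robo receptors, and netrins attract through DCC and repel through UNC5 receptors. The sympathetic neurons from whose precursors neuroblastoma arises use several of these cues during migration and outgrowth, and the same molecules act in blood vessel growth and tumour cell movement.

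TRAP1, the target of both labelled lines, was examined first. Its rlog values were 10.67, 10.66 and 10.65 in the parental libraries, 10.79, 10.79 and 10.83 in those labelled KD and 10.67, 10.63 and 10.74 in those labelled OE. All 3 libraries labelled KD lay above all 3 parental libraries, and those labelled OE overlapped the parental ones. Against parental, TRAP1 was higher in the libraries labelled KD by 0.14 (standard error 0.0252, BH-adjusted p = 1.8e-05, limma). For the libraries labelled OE the difference was 0.018 (standard error 0.0252, BH-adjusted p = 0.643, limma). Leaving out 1 library at a time, it ran from -0.012, without OE replicate 3, to 0.042. It was called in 1 alternative alone, chosen after seeing the data, at 0.064 (BH-adjusted p = 0.0346, limma). There, medians of 20-Mb blocks, taken from genes at rlog 8 or more, were removed. TRAP1 RNA therefore goes against the KD label and, outside that alternative, gives no support for the OE label. Both names stand below for labels of libraries only. In KD and in OE mean below in the libraries so labelled against the parental ones, and the uncertainty applies wherever a direction is drawn from them.

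The labelled cell type was checked against marker genes. MYCN, whose amplification IMR-32 is known for, had rlog values of 2.54, 2.46 and 2.54 in the parental libraries. The noradrenergic genes PHOX2A, TH and CHGA had parental means of 1.33, 2.84 and 4.07. Of 21 adrenergic neuroblastoma markers 14 had values, 6 of them under 5 in parental cells, and the highest value was that of TFAP2B with a mean of 13.67. All 12 mesenchymal neuroblastoma markers had values, and VIM, the intermediate filament gene vimentin, had a parental mean of 15.72. These marker values are not corrected for gene length, so they show presence and do not rank genes. Other adrenergic genes read 9.37 in parental for ISL1, 9.27 for GATA2, 9.10 for NEFL, 9.10 for SCG2, 7.25 for GATA3 and 6.36 for HAND2. The authors write that the identity of the line was checked. The low level of MYCN, PHOX2A, TH and CHGA goes against the label while other markers on the list are present, so the cells are called only by their label. Summed on the linear scale and returned to log2, the adrenergic list read 13.93, 13.94 and 13.95 in the parental libraries, 14.25, 14.24 and 14.25 in those labelled KD and 14.16, 14.19 and 14.19 in those labelled OE. The mesenchymal list read 17.27, 17.28 and 17.28 in the parental libraries, 17.52, 17.52 and 17.51 in those labelled KD and 17.38, 17.38 and 17.39 in those labelled OE. Both sums were higher in every library labelled KD or OE than in any parental library, and the adrenergic sum is mostly TFAP2B. Counts by gene in this paragraph stand beside 26.9% of all genes called higher and 26.9% lower in KD, and 16.9% and 18.0% in OE. Of all genes at a mean rlog of at least 5, 71.7% were called either way in KD and 50.3% in OE. By gene the adrenergic list had 5 called higher and 6 lower in KD, and 3 higher and 2 lower in OE. The mesenchymal list had 8 genes called higher and 3 called lower in KD, and 7 and 4 in OE, and its transcription factor PRRX1 rose by 1.29 in KD and 0.69 in OE. Of the same list, the transcription factor gene FOSL1 fell by 0.72 and 0.52, MEOX1 by 0.31 and 0.15, and the adhesion receptor gene CD44 by 0.16 and 0.034. Among markers of other cells, those with the highest values were ERBB3 in the Schwann and melanocyte list (6 of 8 with values, parental mean 13.98), KRT18 in the epithelial list (15 of 20, 12.06), PECAM1 in the endothelial list (8 of 8, 9.44) and CD74 in the blood list (4 of 6, 16.24). The endothelial cadherin gene CDH5 was near 0 with a mean of 0.63, and the leukocyte gene PTPRC had 2.65. Sums of the epithelial list ran from 12.81 to 12.82 in parental libraries, 12.84 to 12.89 in those labelled KD and 12.66 to 12.67 in those labelled OE. For the endothelial list they were 10.08 to 10.10, 10.19 to 10.22 and 9.64 to 9.76 in the same order, although of that list only PECAM1 and VWF rose in KD, by 0.47 and 0.21, while KDR fell by 1.32 and ERG by 0.099. For the blood list they were 16.24 to 16.24, 16.36 to 16.40 and 16.16 to 16.17, and for the Schwann list 14.36 to 14.39, 14.58 to 14.61 and 14.53 to 14.54. By gene the epithelial list had 2 called higher and 4 lower in KD, and 1 higher and 4 lower in OE. Its KRT8 and DSP rose in KD by 0.39 and 0.37, while KRT14, JUP, KRT7 and KRT17 fell by 0.70, 0.44, 0.27 and 0.086. KRT18 had 0.037 in KD, not called. The blood list had 1 called higher and 1 lower in KD, and 0 and 2 in OE. The Schwann list had 2 and 2 in KD, and 4 and 0 in OE. The part of cell composition or state in the results below was not tested. In bulk RNA, fewer cells of a type and less RNA per cell cannot be told apart.

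Most guidance genes, like most of all genes, differed from parental in at least 1 labelled line, in both directions. Against parental, the libraries labelled KD had 26 of the 64 called higher, beside 26.9% of all genes, and 25 called lower, beside 26.9% of all genes. In 54 of the 64 the KD and parental ranges did not overlap, beside 59.2% of all genes. Together 51 of the 64 were called in KD, beside 53.7% of all genes, and 39 in OE, beside 34.8%. The libraries labelled OE had 17 called higher, beside 16.9% of all genes, and 22 called lower, beside 18.0%, and in 43 the groups did not overlap, beside 43.2%. With each library centred to 1 median, 16 guidance genes were called higher and 25 lower in OE, and among all genes the called split moved from 3762 higher and 4002 lower to 2963 higher and 5212 lower. The all-gene OE split moved the other way, to 4951 higher and 3735 lower, with block medians of genes at rlog 8 or more removed, an alternative added after seeing the data, and to 129 higher and 71 lower with a difference over 0.5 as well. In KD it was 5985 higher and 5995 lower, and 5455 and 6623 with centred libraries. A difference of more than 0.5 as well was found for 11 guidance genes in KD, beside 4.98% of all genes, and for 5 in OE, beside 0.897%. The median difference of the 64 was -0.010 in KD and 0.0085 in OE, and the median absolute difference was 0.236 and 0.110, beside 0.0806 and 0.0479 over all 22290 genes. Level bears on such shares: 53 of the 64, 82.8%, had a mean rlog of at least 5, beside 62.8% of all genes. Among genes at that level the guidance genes had 47 of 53 called in KD, beside 71.7%, and 37 of 53 in OE, beside 50.3%, with median absolute differences of 0.273 and 0.137 beside 0.137 and 0.0749. Every family but the Slits had members called in both directions in KD.

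**Figure D1:**
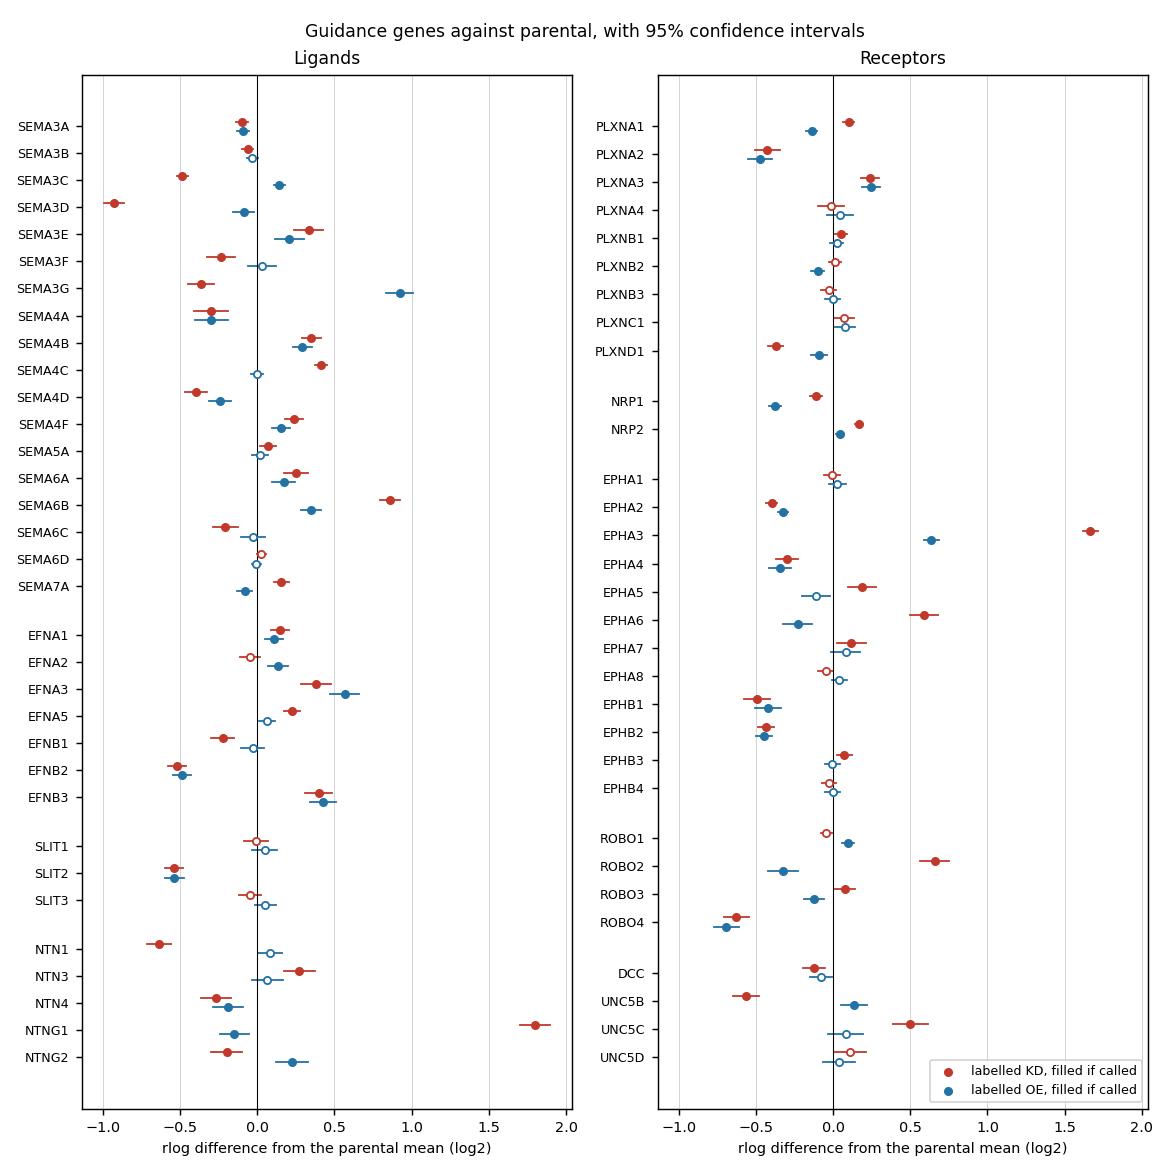
Difference in rlog value (log2) from the parental mean for each of the 64 genes, ligands on the left and receptors on the right, grouped by family, in the libraries labelled KD (red) and OE (blue), with 95% confidence intervals from limma (n = 3 libraries per group); filled points were called. NTNG1 and EPHA3 lie furthest right in KD, SEMA3D furthest left, and SEMA3G furthest right in OE.

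Both comparisons use the same 3 parental libraries, so their values are given side by side. Of the 36 genes called in both, 11 were higher in both lines, 15 were lower in both, 6 were higher in KD and lower in OE (EPHA6, ROBO2, ROBO3, NTNG1, PLXNA1 and SEMA7A) and 4 were lower in KD and higher in OE (UNC5B, NTNG2, SEMA3C and SEMA3G). Over all 22290 genes 6160 were called in both, 2443 of them higher in both, 2773 lower in both, 483 higher in KD and lower in OE and 461 lower in KD and higher in OE. A further 15 guidance genes were called in KD and not in OE, 3 in OE and not in KD, and 10 in neither. Of all 22290 genes these numbers were 5820, 1604 and 8706. At a mean rlog of at least 5, 4 of 53 guidance genes were called in neither, beside 2695 of 14000 genes. Among the genes called in opposite directions, ROBO3, NTNG1, SEMA7A, UNC5B, NTNG2 and SEMA3G each lost a call in at least 1 alternative analysis, as given with each gene or with position. Of the genes not called, 6 of 13 in KD (EPHA8, EPHB4, PLXNC1, ROBO1, SEMA6D and UNC5D) and 8 of 25 in OE (DCC, EFNA5, EPHA5, NTN1, PLXNC1, SEMA3B, SEMA5A and UNC5C) were called in at least 1 alternative, so these stand near the threshold or depend on the processing. The direct test between the lines called 17 genes higher in OE than in KD, beside 23.5% of all genes, and 20 lower, beside 23.8%, and 38 did not overlap, beside 54.1%. That made 37 called either way, beside 47.3%, of which 10 differed by more than 0.5 as well, beside 3.56%. Among genes at a mean rlog of at least 5, 32 of 53 guidance genes (60.4%) were called, beside 64.1% of all genes. At that level 34 (64.2%) did not overlap, beside 68.2%, and 10 (18.9%) differed by more than 0.5 as well, beside 5.45%. The called and non-overlapping shares were thus no higher than those of all genes at that level.

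Parental levels of guidance genes were compared with each other only as rlog minus log2 of the exonic length in kilobases. On that scale SEMA3B, a secreted semaphorin, was highest with 11.40, ahead of the receptor EPHA2 with 10.81 and SEMA3C with 9.99. Plexins followed with 9.51 for PLXNB2, a receptor of class 4 semaphorins, and 8.81 for PLXNA1. The neuropilins NRP2 and NRP1 had 9.44 and 8.62, and EFNA1, a ligand of EPHA2, had 9.05. Among Robo receptors ROBO1 led with 8.46 and ROBO3 had 6.42, while of the Slits SLIT2 had 6.27 and SLIT1 only 0.35. Netrins and their receptors were lower: NTN4 had 5.98, NTN1 5.90, UNC5B 4.64, UNC5C 2.80 and DCC, the attractant netrin receptor, -0.35. A mean rlog under 5 over the 9 libraries was found for 11 of the 64, and their differences are the most shrunken.

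**Figure D2:**
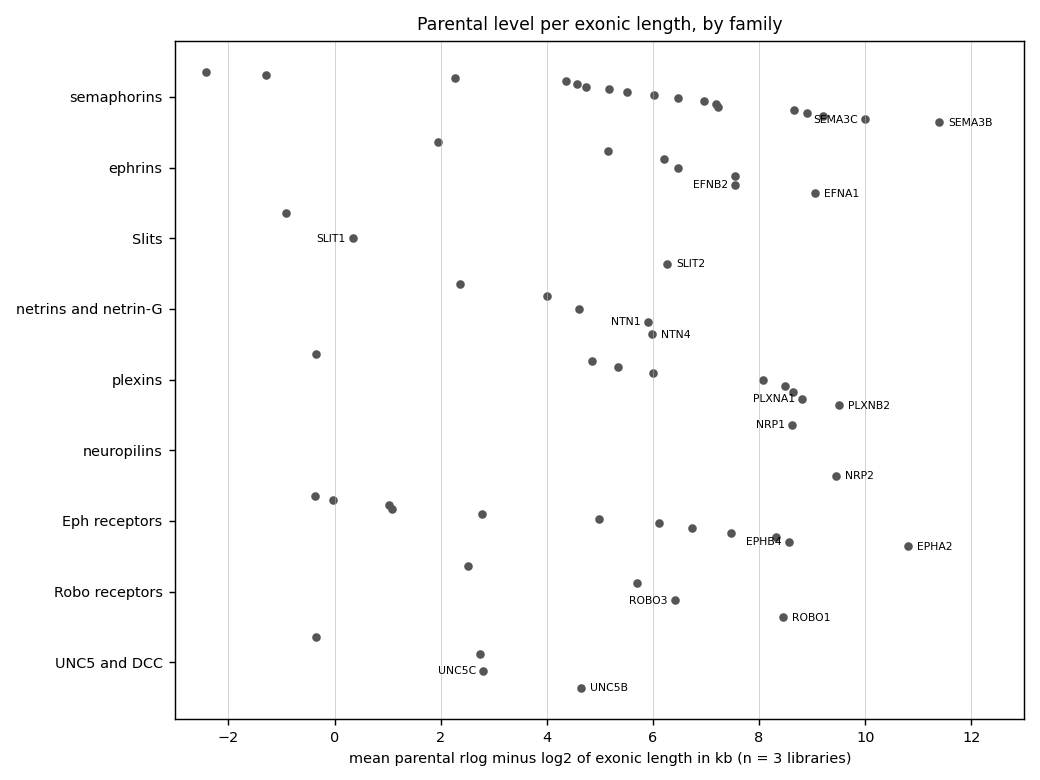
Mean parental rlog value minus log2 of the exonic length in kilobases (n = 3 libraries) for each of the 64 genes, 1 point per gene, by family, with the highest 2 of each family named. SEMA3B and EPHA2 are the highest points, and the UNC5 and DCC family has the lowest maximum.

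Sequence upstream of the start was taken from RefSeq on GRCh38.p14, where 54 of the 64 genes matched, and is shown for 5 genes that stand for the patterns across the lines: EPHA3 and EFNA3, higher in both, SLIT2 and EFNB2, lower in both, and SEMA3G, lower in KD and higher in OE. Each run holds the 250 bases before the start, 5′ to 3′ on the strand of the gene, in lower case, with matches to the GC box (GGGCGG on either strand) in capitals. The windows are chr3:89107371-89107620 on the plus strand for EPHA3, chr1:155078587-155078836 on the plus strand for EFNA3, chr4:20251655-20251904 on the plus strand for SLIT2, chr13:106535663-106535912 on the minus strand for EFNB2 and chr3:52445104-52445353 on the minus strand for SEMA3G. All lie outside annotated genes of GENCODE 44 except that of EFNA3, which lies between exons of the readthrough gene EFNA4-EFNA3.
EPHA3: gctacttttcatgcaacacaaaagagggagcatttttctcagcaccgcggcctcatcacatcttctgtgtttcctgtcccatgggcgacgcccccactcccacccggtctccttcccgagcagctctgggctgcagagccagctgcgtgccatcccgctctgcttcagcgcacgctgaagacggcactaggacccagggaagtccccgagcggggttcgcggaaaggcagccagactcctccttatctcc
EFNA3: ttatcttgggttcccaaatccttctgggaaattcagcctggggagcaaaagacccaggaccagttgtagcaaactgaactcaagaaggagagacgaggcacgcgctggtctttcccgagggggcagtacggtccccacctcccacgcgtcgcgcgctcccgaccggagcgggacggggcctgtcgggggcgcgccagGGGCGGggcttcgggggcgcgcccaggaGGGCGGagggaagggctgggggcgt
SLIT2: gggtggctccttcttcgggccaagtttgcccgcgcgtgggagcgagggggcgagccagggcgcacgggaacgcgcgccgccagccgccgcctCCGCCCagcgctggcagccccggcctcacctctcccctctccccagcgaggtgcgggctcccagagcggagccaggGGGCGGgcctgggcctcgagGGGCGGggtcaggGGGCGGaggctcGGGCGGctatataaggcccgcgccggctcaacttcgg
EFNB2: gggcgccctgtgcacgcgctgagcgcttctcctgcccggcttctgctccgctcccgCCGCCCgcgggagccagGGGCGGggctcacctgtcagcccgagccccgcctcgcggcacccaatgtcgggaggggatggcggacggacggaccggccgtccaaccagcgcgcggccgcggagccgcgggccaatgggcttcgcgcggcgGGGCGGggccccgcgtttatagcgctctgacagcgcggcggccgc
SEMA3G: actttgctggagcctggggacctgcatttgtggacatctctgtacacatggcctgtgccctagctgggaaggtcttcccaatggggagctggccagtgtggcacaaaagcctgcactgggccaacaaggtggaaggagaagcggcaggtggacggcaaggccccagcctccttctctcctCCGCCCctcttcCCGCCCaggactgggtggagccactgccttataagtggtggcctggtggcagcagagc

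GC boxes, the letters GGGCGG that Sp family factors can bind, numbered 0 in the EPHA3 window, 2 in EFNA3, 5 in SLIT2, 3 in EFNB2 and 2 in SEMA3G. The GC content was 61.2% for EPHA3, 67.6% for EFNA3, 77.2% for SLIT2, 78.4% for EFNB2 and 62.0% for SEMA3G. At least 1 match on either strand was found in 38 of the 54 guidance windows (70.4%), beside 56.0% of 15843 protein-coding genes, with a median GC content of 65.0% beside 62.4%. The shares were 72.7% of 22 windows of genes called higher in KD and 70.0% of 20 windows of genes called lower, and 75.0% of 8 windows of genes called higher in both lines and 76.9% of 13 called lower in both. The E-box CACGTG, searched on both strands, was in 4 of the 54 (7.41%), beside 7.84% of all. The core of the hypoxia response element, ACGTG, which every CACGTG contains, was in 6 (11.1%), beside 20.8%. A match describes letters only and is neither a bound site nor a cause.

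Counts by family below stand beside 26.9% of all genes called higher and 26.9% called lower in KD, and 16.9% and 18.0% in OE. Secreted class 3 semaphorins, which mostly repel axons through neuropilins, were called lower in 6 of 7 cases in KD and higher in 1, SEMA3E. In OE 3 were called higher and 2 lower, and the median of the 7 was -0.23 in KD and 0.033 in OE. The direction of 2 of the 6 decreases, SEMA3B and SEMA3F, turned when regional medians were removed, and the call of SEMA3G was lost with medians of genes at rlog 8 or more at -0.058 (other values in the paragraph on position). SEMA3D, on chromosome 7 of GRCh38 from 84995553 to 85187056, had rlog values of 9.49, 9.55 and 9.53 in the parental libraries, 8.60, 8.64 and 8.54 in those labelled KD and 9.45, 9.44 and 9.41 in those labelled OE. The libraries labelled KD were well below the rest, those labelled OE lay just below the parental ones, and no groups overlapped. Its difference was -0.93 (standard error 0.032, BH-adjusted p = 7.0e-22, limma) in KD and -0.088 (standard error 0.032, BH-adjusted p = 0.0304, limma) in OE. That small OE difference was not called without PAR replicate 2, PAR replicate 3, OE replicate 2 or OE replicate 3, at -0.075, -0.085, -0.092 and -0.075 (BH-adjusted p over its limma alternatives 0.00826 to 0.119). Between the lines SEMA3D was higher in OE than in KD by 0.84 (standard error 0.032, BH-adjusted p = 1.7e-20, limma).

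SEMA3G, which binds neuropilin-2 and is known from blood vessels, is on chromosome 3 from 52433035 to 52445103. Its values were 7.57, 7.46 and 7.48 in the parental libraries, 7.16, 7.07 and 7.18 in those labelled KD and 8.42, 8.47 and 8.38 in those labelled OE. Here the libraries labelled OE were highest and those labelled KD lowest, with the parental libraries between and no overlap. The differences were -0.36 (standard error 0.0425, BH-adjusted p = 7.6e-09, limma) in KD and 0.92 (standard error 0.0425, BH-adjusted p = 8.5e-18, limma) in OE, the largest increase of any guidance gene in OE, and 1.29 (standard error 0.0425, BH-adjusted p = 3.5e-22, limma) in OE against KD. SEMA3C, a promoter of cell migration that signals through both neuropilins, was among the most abundant members per length. Its libraries read 12.59, 12.61 and 12.61 in the parental libraries, 12.15, 12.09 and 12.11 in those labelled KD and 12.77, 12.75 and 12.72 in those labelled OE. The order was the same as for SEMA3G, KD lowest and OE highest without overlap, with -0.49 (standard error 0.0178, BH-adjusted p = 3.6e-21, limma) in KD and 0.14 (standard error 0.0178, BH-adjusted p = 7.9e-08, limma) in OE.

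SEMA3B, described in lung cancer as a tumour suppressor gene, read 13.91, 13.92 and 13.95 in the parental libraries, 13.82, 13.87 and 13.90 in those labelled KD and 13.86, 13.88 and 13.94 in those labelled OE. Those labelled OE overlapped parental and those labelled KD lay just below it. Its difference of -0.060 (standard error 0.0177, BH-adjusted p = 0.00427, limma) in KD was not called without KD replicate 1 (-0.040) or without a variance trend, and turned to 0.13 with 20-Mb block medians removed and 0.25 with those of genes at rlog 8 or more (BH-adjusted p over its limma alternatives 1.0e-14, for the latter, to 0.0997), and in OE it was -0.032 (standard error 0.0177, BH-adjusted p = 0.18, limma). SEMA3A, the founding repellent of sensory axons, fell by 0.10 in KD and 0.093 in OE, both called. SEMA3F, a ligand of neuropilin-2, was -0.23 in KD and 0.033 in OE, the latter not called. SEMA3E, a ligand that binds plexin D1 without a neuropilin, rose by 0.33 and 0.21.

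Membrane semaphorins of classes 4 to 7 had 7 of 11 called higher in KD and 3 lower, and 4 higher and 3 lower in OE. SEMA6B, a transmembrane ligand of class A plexins on chromosome 19 from 4542593 to 4581776, had values of 9.42, 9.40 and 9.46 in the parental libraries, 10.26, 10.26 and 10.34 in those labelled KD and 9.70, 9.78 and 9.84 in those labelled OE. KD libraries by label were highest, those labelled OE intermediate and the parental ones lowest, without overlap. It rose by 0.86 (standard error 0.0321, BH-adjusted p = 5.5e-21, limma) in KD and 0.35 (standard error 0.0321, BH-adjusted p = 1.9e-10, limma) in OE. SEMA7A, which is anchored to the membrane by a lipid and binds plexin C1 and integrins, read 11.18, 11.10 and 11.09 in the parental libraries, 11.31, 11.25 and 11.28 in those labelled KD and 11.02, 11.03 and 11.08 in those labelled OE. Every library labelled KD was above and every library labelled OE below the parental range. The differences were 0.16 (standard error 0.0241, BH-adjusted p = 1.3e-06, limma) in KD and -0.080 (standard error 0.0241, BH-adjusted p = 0.00888, limma) in OE, and the latter was not called without PAR replicate 1 (-0.054) or OE replicate 1 (-0.068), nor after quantile normalization (-0.057) or without a variance trend (BH-adjusted p over its limma alternatives 0.00119 to 0.11). Its receptor gene PLXNC1 had 0.071 and 0.077, neither called, though both were without a variance trend (BH-adjusted p over its limma alternatives 0.00117 to 0.328 in KD and 0.013 to 0.18 in OE). Among class 4 members, SEMA4C, a ligand of plexin B2, rose by 0.42 in KD with 0.0011 in OE. SEMA4D, a ligand of plexin B1 known from lymphocytes, fell by 0.40 and 0.24. With block medians of genes at rlog 8 or more removed, its KD difference was -0.046, not called (BH-adjusted p over its limma alternatives 2.2e-13 to 0.242). SEMA4B and SEMA4F were called higher in both lines, SEMA4A lower in both, and SEMA6A higher in both, with absolute differences from 0.16 to 0.35. SEMA6C fell in KD by 0.20, and SEMA5A was called higher in KD at a parental mean of 2.32 with a difference of 0.070, a call lost without PAR replicate 3 (0.059), without KD replicate 3 (0.048) or with libraries centred (0.059; BH-adjusted p over its limma alternatives 1.1e-04 to 0.155). SEMA6D, with a parental mean of 0.67, was called in neither.

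**Figure D3:**
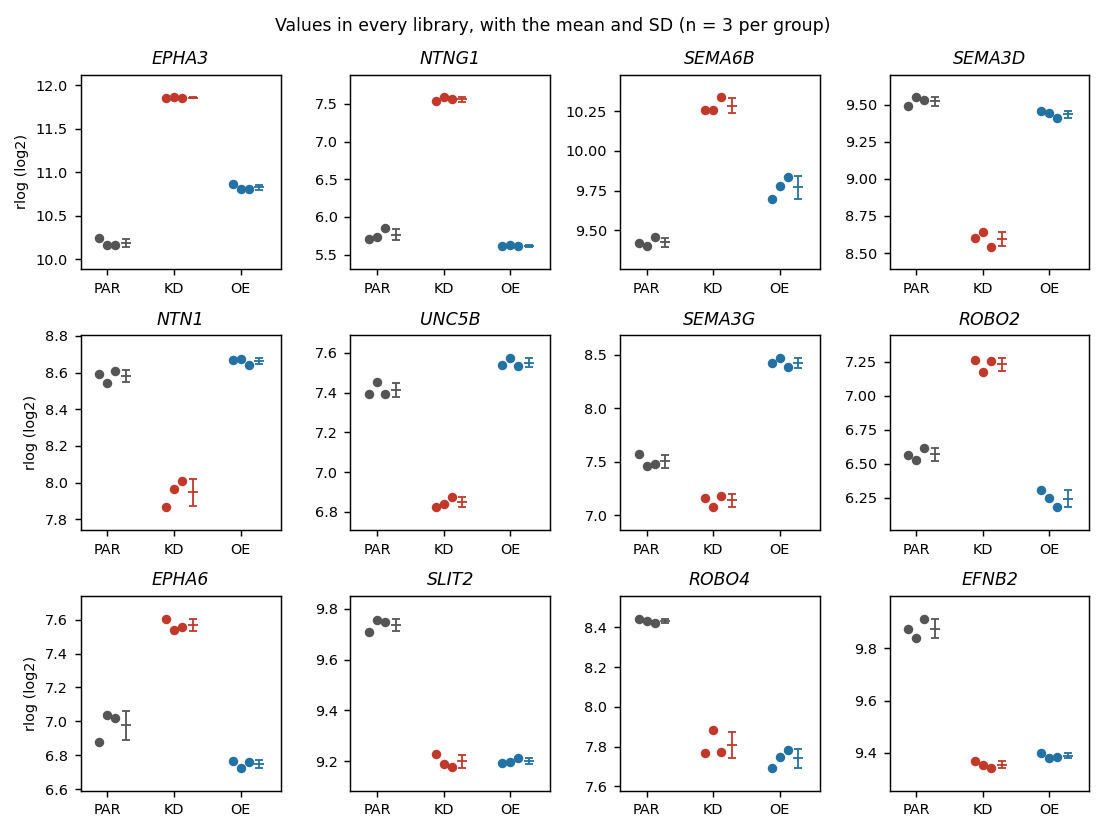
Values in rlog units (log2) of 12 guidance genes in every library, 1 point per library, with the mean and SD beside them (n = 3 per group), for parental (PAR) and the libraries labelled KD and OE; each panel has its own axis range, which does not start at 0. EPHA3 and SEMA6B are lowest in parental, SLIT2, ROBO4 and EFNB2 highest in parental, and SEMA3G, NTN1 and UNC5B lowest in KD.

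Ephrins, the ligands of Eph receptors, had 4 of 7 called higher and 2 lower in KD, and 4 higher and 1 lower in OE. A-type ephrins are held by a lipid anchor and B-type ephrins span the membrane. EFNA3 read 6.16, 6.09 and 6.10 in the parental libraries, 6.45, 6.56 and 6.49 in those labelled KD and 6.66, 6.64 and 6.75 in those labelled OE. Its groups stood in the order parental, KD, OE from low to high with no overlap. The differences were 0.38 (standard error 0.0475, BH-adjusted p = 2.8e-08, limma) and 0.57 (standard error 0.0475, BH-adjusted p = 2.1e-11, limma). Other annotated genes, the readthrough EFNA4-EFNA3 among them, overlap 43.9% of its exons by length, so its reads could have been split and its values are uncertain. EFNB2, a ligand of EPHB4 that marks arteries, is on chromosome 13 from 106489745 to 106535662. It had 9.87, 9.84 and 9.91 in the parental libraries, 9.37, 9.35 and 9.34 in those labelled KD and 9.40, 9.38 and 9.38 in those labelled OE. All 6 libraries labelled KD or OE lay below the parental range, by -0.52 (standard error 0.0287, BH-adjusted p = 1.5e-16, limma) in KD and -0.49 (standard error 0.0287, BH-adjusted p = 4.3e-15, limma) in OE, and another annotated gene overlaps 36.4% of its exons by length. EFNB3, the midline barrier ligand of the spinal cord, had 7.98, 7.84 and 7.86 in the parental libraries, 8.25, 8.32 and 8.31 in those labelled KD and 8.34, 8.38 and 8.24 in those labelled OE. The 2 labelled lines overlapped each other and lay above parental, by 0.40 (standard error 0.0418, BH-adjusted p = 8.1e-10, limma) in KD and 0.43 (standard error 0.0418, BH-adjusted p = 5.7e-10, limma) in OE. EFNA1 rose by 0.15 and 0.11, and EFNA5, a high-affinity ligand of EPHA3, by 0.23 in KD, with 0.062 in OE not called. EFNB1 fell by 0.22 in KD, and EFNA2, low at a parental mean of 3.24, was called higher in OE alone with 0.13 against -0.046 in KD.

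SLIT2, the main repellent ligand of Robo receptors, on chromosome 4 from 20251905 to 20620561, had values of 9.71, 9.75 and 9.75 in the parental libraries, 9.23, 9.19 and 9.18 in those labelled KD and 9.19, 9.20 and 9.21 in those labelled OE. The 6 libraries of the labelled lines overlapped each other and all lay under the parental ones. Its difference was -0.54 (standard error 0.0293, BH-adjusted p = 1.1e-16, limma) in KD and -0.54 (standard error 0.0293, BH-adjusted p = 6.6e-16, limma) in OE, and OE minus KD was 0.0016 with a 95% confidence interval of -0.058 to 0.061. With 20-Mb block medians removed OE minus KD became 0.10, and 0.14 with those of genes at rlog 8 or more, both called, so whether the lines differ depends on this step (BH-adjusted p over its limma alternatives 2.2e-04 to 0.97). SLIT1 and SLIT3 were low, with parental means of 3.54 and 2.92, and were called in neither line.

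NTN1, the gene of the secreted cue netrin-1, is on chromosome 17 from 9021510 to 9244000 and read 8.59, 8.54 and 8.61 in the parental libraries, 7.86, 7.97 and 8.01 in those labelled KD and 8.67, 8.67 and 8.64 in those labelled OE. Libraries labelled KD were far below the rest, and those labelled OE lay just above parental. The difference was -0.63 (standard error 0.038, BH-adjusted p = 1.3e-15, limma) in KD, while 0.082 (standard error 0.038, BH-adjusted p = 0.0969, limma) in OE was not called although the groups did not overlap. In OE against KD it was 0.72 (standard error 0.038, BH-adjusted p = 8.9e-17, limma). NTNG1 encodes netrin-G1, a lipid-anchored relative that binds a postsynaptic adhesion protein and not DCC or UNC5. It is on chromosome 1 from 107140007 to 107484923, with values of 5.71, 5.73 and 5.85 in the parental libraries, 7.53, 7.59 and 7.56 in those labelled KD and 5.61, 5.63 and 5.61 in those labelled OE. All 3 libraries labelled KD stood far above the other 6, and those labelled OE were slightly below parental. This was the largest difference of any guidance gene from parental, 1.80 (standard error 0.0466, BH-adjusted p = 3.4e-25, limma) in KD. In OE it was -0.15 (standard error 0.0466, BH-adjusted p = 0.0131, limma), which was not called without PAR replicate 3 (-0.10; BH-adjusted p over its limma alternatives 0.00523 to 0.113), and in OE against KD -1.95 (standard error 0.0466, BH-adjusted p = 6.4e-26, limma). NTNG2, of netrin-G2, read 6.28, 6.30 and 6.43 in the parental libraries, 6.12, 6.17 and 6.13 in those labelled KD and 6.56, 6.65 and 6.48 in those labelled OE. Its KD libraries by label were lowest and its OE libraries highest, with differences of -0.20 (standard error 0.0503, BH-adjusted p = 0.00116, limma) and 0.23 (standard error 0.0503, BH-adjusted p = 4.8e-04, limma). With 20-Mb block medians removed the KD difference turned to 0.034, not called, and with those of genes at rlog 8 or more to 0.15, called (BH-adjusted p over its limma alternatives 2.2e-04 to 0.594). NTN4, a netrin of basement membranes, fell by 0.27 and 0.19, and NTN3 rose by 0.27 in KD, with 0.066 in OE not called.

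Plexins, the signalling receptors of semaphorins, had 3 of 9 called higher and 2 lower in KD, and 1 higher and 4 lower in OE. PLXNA2 had 8.65, 8.62 and 8.67 in the parental libraries, 8.30, 8.20 and 8.15 in those labelled KD and 8.20, 8.18 and 8.13 in those labelled OE. The labelled lines overlapped each other below the parental range, with -0.42 (standard error 0.0385, BH-adjusted p = 3.0e-11, limma) in KD and -0.47 (standard error 0.0385, BH-adjusted p = 9.8e-12, limma) in OE. PLXNA1, which pairs with neuropilin-1, had 12.32, 12.28 and 12.31 in the parental libraries, 12.40, 12.39 and 12.42 in those labelled KD and 12.15, 12.16 and 12.19 in those labelled OE. It was highest in the libraries labelled KD and lowest in those labelled OE, with no overlap and small differences of 0.10 (standard error 0.0176, BH-adjusted p = 1.0e-05, limma) and -0.14 (standard error 0.0176, BH-adjusted p = 1.5e-07, limma). PLXNA3 rose by 0.24 and 0.25, and PLXND1, the receptor of SEMA3E, fell by 0.37 and 0.091. PLXNB2 had 0.010 in KD, not called, and fell by 0.10 in OE. PLXNB1, a receptor of SEMA4D, was called higher in KD with 0.052, a call lost without PAR replicate 2 (0.047), PAR replicate 3 (0.051) or KD replicate 2 (0.034), with libraries centred (0.041) or without a variance trend (BH-adjusted p over its limma alternatives 3.8e-17 to 0.215). PLXNA4, PLXNB3 and PLXNC1 were called in neither line.

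NRP1, the neuropilin that binds SEMA3A and vascular endothelial growth factor, read 12.14, 12.18 and 12.13 in the parental libraries, 12.04, 12.05 and 12.03 in those labelled KD and 11.75, 11.79 and 11.78 in those labelled OE. Parental libraries were highest and those labelled OE lowest, with those labelled KD between and no overlap. Its differences were -0.11 (standard error 0.0186, BH-adjusted p = 4.3e-06, limma) in KD and -0.38 (standard error 0.0186, BH-adjusted p = 4.7e-17, limma) in OE. NRP2, which binds SEMA3F and SEMA3G, read 13.24, 13.24 and 13.24 in the parental libraries, 13.41, 13.42 and 13.40 in those labelled KD and 13.28, 13.28 and 13.30 in those labelled OE. The libraries labelled KD were highest, those labelled OE next, and none overlapped. It rose by 0.17 (standard error 0.0136, BH-adjusted p = 2.4e-12, limma) in KD and 0.045 (standard error 0.0136, BH-adjusted p = 0.00943, limma) in OE, the latter not called once libraries were centred to 1 median (0.027), without a variance trend or with 20-Mb block medians removed (0.033; BH-adjusted p over its limma alternatives 2.8e-04 to 0.129).

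Eph receptors, tyrosine kinases that read ephrins on touching cells, had 5 of 12 called higher and 4 lower in KD, and 1 higher and 5 lower in OE. EPHA3, on chromosome 3 from 89107621 to 89482134, had values of 10.24, 10.16 and 10.17 in the parental libraries, 11.85, 11.86 and 11.85 in those labelled KD and 10.86, 10.81 and 10.81 in those labelled OE. The libraries labelled KD were highest and the parental ones lowest, with those labelled OE between, and the gaps between groups were many times the spread within them. It rose by 1.67 (standard error 0.0237, BH-adjusted p = 4.4e-32, limma) in KD and by 0.63 (standard error 0.0237, BH-adjusted p = 4.3e-20, limma) in OE, and between the lines the difference was -1.03 (standard error 0.0237, BH-adjusted p = 2.0e-26, limma). No guidance gene other than EPHA3 and NTNG1 differed by more than 1 from parental in either line. EPHA6 had 6.88, 7.04 and 7.02 in the parental libraries, 7.61, 7.54 and 7.56 in those labelled KD and 6.76, 6.72 and 6.76 in those labelled OE. Its libraries labelled KD were above and those labelled OE below the parental range, by 0.59 (standard error 0.0453, BH-adjusted p = 6.3e-13, limma) and -0.23 (standard error 0.0453, BH-adjusted p = 1.3e-04, limma), and another annotated gene overlaps 11.0% of its exons by length.

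EPHA2, the most abundant Eph receptor per length and known from epithelial cells and many carcinomas, read 12.88, 12.85 and 12.84 in the parental libraries, 12.43, 12.48 and 12.47 in those labelled KD and 12.51, 12.53 and 12.56 in those labelled OE. Parental libraries were highest and those labelled KD lowest, without overlap, with -0.40 (standard error 0.0173, BH-adjusted p = 3.7e-19, limma) in KD and -0.32 (standard error 0.0173, BH-adjusted p = 3.6e-16, limma) in OE. EPHB2, a receptor of B-type ephrins, had 10.36, 10.36 and 10.41 in the parental libraries, 9.95, 9.94 and 9.94 in those labelled KD and 9.91, 9.94 and 9.95 in those labelled OE. It was lower in all 6 libraries of the labelled lines, which overlapped each other, by -0.44 (standard error 0.0255, BH-adjusted p = 6.9e-16, limma) and -0.44 (standard error 0.0255, BH-adjusted p = 2.2e-15, limma). EPHB1 had 7.50, 7.56 and 7.52 in the parental libraries, 7.05, 7.01 and 7.05 in those labelled KD and 7.10, 7.08 and 7.14 in those labelled OE. It too was highest in parental, with -0.49 (standard error 0.0414, BH-adjusted p = 5.2e-12, limma) in KD and -0.42 (standard error 0.0414, BH-adjusted p = 6.6e-10, limma) in OE. EPHA4, a receptor of both ephrin types, fell by 0.30 and 0.34. EPHB4, the venous receptor of EFNB2, had -0.026 and -0.0029, neither called. EPHA5 and EPHA7, low at parental means of 4.33 and 5.12, were called higher in KD with 0.19 and 0.12. EPHA5 turned to -0.23, called, with block medians of genes at rlog 8 or more removed. The EPHA7 call was lost without PAR replicate 1 (0.12), PAR replicate 3 (0.10), KD replicate 1 (0.12) or KD replicate 3 (0.084), with libraries centred (0.11), after quantile normalization (0.10) and with 20-Mb block medians removed (0.081; BH-adjusted p over its limma alternatives 0.00945 to 0.279). EPHB3 was called higher in KD with 0.074, but turned to -0.014, not called, with 20-Mb block medians removed and to -0.17, called, with those of genes at rlog 8 or more. Its call was also lost without PAR replicate 2 (0.062) or KD replicate 2 (0.063; BH-adjusted p over its limma alternatives 1.0e-06 to 0.647). EPHA1 and EPHA8 were called in neither.

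Robo receptors bind Slits, apart from the divergent ROBO3, which governs midline crossing, and ROBO4, which is known from endothelium. In KD 2 of the 4 were called higher and 1 lower, and in OE 1 higher and 3 lower. ROBO2, on chromosome 3 from 75906695 to 77649964, had values of 6.57, 6.53 and 6.62 in the parental libraries, 7.26, 7.17 and 7.25 in those labelled KD and 6.31, 6.25 and 6.18 in those labelled OE. Libraries labelled KD were above and those labelled OE below parental, with no overlap. The differences were 0.66 (standard error 0.0465, BH-adjusted p = 7.7e-14, limma) in KD, -0.32 (standard error 0.0465, BH-adjusted p = 1.0e-06, limma) in OE and -0.98 (standard error 0.0465, BH-adjusted p = 4.6e-18, limma) between the lines. ROBO4, on chromosome 11 from 124883691 to 124898500 on the minus strand, read 8.44, 8.43 and 8.42 in the parental libraries, 7.77, 7.88 and 7.77 in those labelled KD and 7.69, 7.75 and 7.78 in those labelled OE. All 6 libraries of the labelled lines lay below the parental range and overlapped each other, by -0.63 (standard error 0.0399, BH-adjusted p = 6.2e-15, limma) in KD and -0.69 (standard error 0.0399, BH-adjusted p = 2.6e-15, limma) in OE. Of its exonic bases 18.0% are shared with another gene. ROBO3, on the plus strand, ends 2.22 kb from the end of ROBO4 and read 9.19, 9.20 and 9.27 in the parental libraries, 9.29, 9.29 and 9.32 in those labelled KD and 9.14, 9.11 and 9.06 in those labelled OE. It was slightly higher in the libraries labelled KD and lower in those labelled OE, by 0.080 (standard error 0.0318, BH-adjusted p = 0.0345, limma) and -0.12 (standard error 0.0318, BH-adjusted p = 0.00285, limma). The KD call was lost without any 1 of PAR replicate 1, PAR replicate 2 and the 3 KD replicates, at 0.065, 0.069, 0.085, 0.084 and 0.070, with libraries centred (0.068) and after quantile normalization (0.064; BH-adjusted p over its limma alternatives 6.1e-05 to 0.133). The OE call was lost with block medians from genes at rlog 8 or more removed (-0.056). ROBO1, the most abundant Robo gene per length, had -0.043 in KD, not called although the groups did not overlap, and rose by 0.096 in OE. Its KD difference was called in 7 of 17 alternatives, among them centred libraries at -0.054 and 20-Mb block medians removed at -0.050 (BH-adjusted p over its limma alternatives 1.5e-04 to 0.223).

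UNC5B, a repellent netrin receptor of the dependence receptor class, is on chromosome 10 from 71212570 to 71302864. It had 7.40, 7.45 and 7.39 in the parental libraries, 6.83, 6.84 and 6.88 in those labelled KD and 7.54, 7.57 and 7.53 in those labelled OE. The libraries labelled KD were lowest and those labelled OE highest, without overlap. Its differences were -0.57 (standard error 0.0411, BH-adjusted p = 1.6e-13, limma) in KD, 0.14 (standard error 0.0411, BH-adjusted p = 0.00898, limma) in OE and 0.70 (standard error 0.0411, BH-adjusted p = 1.1e-15, limma) between the lines, and the OE difference was not called after quantile normalization (0.10; BH-adjusted p over its limma alternatives 0.00153 to 0.0543). UNC5C read 6.22, 6.13 and 6.32 in the parental libraries, 6.73, 6.77 and 6.67 in those labelled KD and 6.45, 6.22 and 6.24 in those labelled OE. All libraries labelled KD were above the other 6, while those labelled OE overlapped parental. It rose by 0.50 (standard error 0.0557, BH-adjusted p = 2.9e-09, limma) in KD, and the OE difference of 0.083 (standard error 0.0557, BH-adjusted p = 0.279, limma) was not called. Its KD call, like those of SEMA3G and SEMA4D, was lost in an alternative given in the paragraph on position. DCC, at a parental mean of 3.36, was called lower in KD with -0.12, and UNC5D, at 6.17, was called in neither.

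Position was examined because guidance genes share chromosome regions with genes that moved. For each member the median difference was taken over other genes within 10 Mb with a mean rlog of at least 8, which numbered 17 to 215. In KD this median passed 0.25 in size for 6 members: it was -0.31 around PLXNB1, -0.31 around SEMA3B, -0.31 around SEMA3F and -0.31 around SEMA3G on chromosome 3, and -0.36 around SEMA4D and -0.35 around NTNG2 on chromosome 9. Around all other members it lay between -0.066 and 0.154 in KD, and around EPHA3, NTNG1 and SEMA3D it was 0.10, 0.0070 and -0.015. After medians of 20-Mb blocks were removed, SEMA3B differed from parental in KD by 0.13 in place of -0.060, and NTNG2 by 0.034, no longer called, in place of -0.20. The same step gave -0.040 for SEMA3F and -0.014 for EPHB3, neither called, and -0.17 for SEMA3G, -0.22 for SEMA4D, 0.11 for EPHA5 and 0.25 for PLXNB1, all called. With block medians from genes at rlog 8 or more, an alternative chosen after seeing the data, SEMA3F read 0.074, SEMA3G -0.058, SEMA4D -0.046 and UNC5C 0.097 in KD, none called, and EPHA5 and EPHB3 turned to -0.23 and -0.17. A block median needed only 10 other genes. For EPHA5, UNC5C and EPHB3 this removal moved the KD difference by more than the median of genes within 10 Mb, so the regional measures disagree there. SEMA3B then read 0.25, NTNG2 0.15, PLXNB1 0.36, ROBO3 0.17 and SEMA5A 0.13 in KD, all called, EPHA7 0.060, not called, and in OE ROBO1 read 0.058, called, with SEMA3D at -0.067 and NRP2 at 0.032, not called. The part of such regions in these differences was not otherwise tested.

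Some close members differed in sign from each other and others shared it. EFNA3 and EFNA1, 40.3 kb apart, had 0.38 and 0.15 in KD, SEMA3F and SEMA3G, 2244 kb apart, -0.23 and -0.36, and EPHA8 and EPHB2, 107 kb apart, -0.049 and -0.44. ROBO3 and ROBO4, 2.22 kb apart, had 0.080 and -0.63 in KD. The semaphorin genes SEMA3C, SEMA3E, SEMA3A and SEMA3D lie in that order on chromosome 7, with SEMA3A and SEMA3D 503 kb apart. In KD their differences were -0.49, 0.33, -0.10 and -0.93. ROBO2 and ROBO1, 947 kb apart on chromosome 3, had 0.66 and -0.043. SEMA3G and SEMA3B, 2155 kb apart, had 0.92 and -0.032 in OE.

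**Figure D4:**
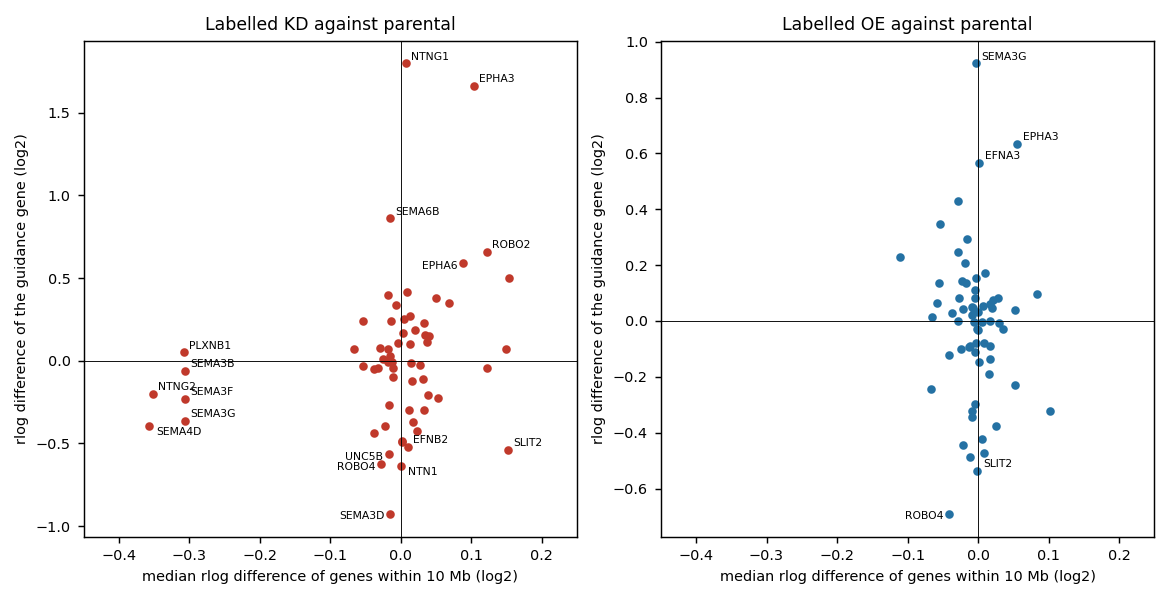
Difference in rlog value (log2) of each guidance gene from parental against the median difference of other genes within 10 Mb that have a mean rlog of at least 8, for the libraries labelled KD (left) and OE (right), 1 point per gene. In KD 6 genes lie left of the rest with neighbour medians below -0.25, and NTNG1 and EPHA3 stand high with neighbour medians of 0.0070 and 0.10.

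Other genes of these pathways came from a list of 88 co-receptors and signalling partners, of which 84 had values. In KD 27 were called higher, beside 26.9% of all genes, and 39 lower, beside 26.9%, and in OE 22 higher, beside 16.9%, and 25 lower, beside 18.0%. Level bears on these shares too: 76 of the 84, 90.5%, had a mean rlog of at least 5, beside 62.8% of all genes. Of the 84, 78.6% were called in KD and 56.0% in OE, beside 71.7% and 50.3% of all genes at that level. KDR, also on the endothelial marker list and a receptor of vascular endothelial growth factor that works with NRP1, read 8.12, 8.22 and 8.18 in the parental libraries, 6.94, 6.79 and 6.83 in those labelled KD and 7.20, 7.36 and 7.44 in those labelled OE. Its libraries labelled KD were lowest and the parental ones highest, without overlap, at -1.32 (standard error 0.0502, BH-adjusted p = 9.4e-21, limma) in KD and -0.84 (standard error 0.0502, BH-adjusted p = 6.8e-15, limma) in OE. L1CAM, an adhesion molecule in the SEMA3A receptor complex, read 10.76, 10.73 and 10.74 in the parental libraries, 9.78, 9.83 and 9.82 in those labelled KD and 11.06, 11.08 and 11.11 in those labelled OE. It was lowest in the libraries labelled KD and highest in those labelled OE, without overlap, by -0.93 (standard error 0.0242, BH-adjusted p = 3.7e-25, limma) and 0.34 (standard error 0.0242, BH-adjusted p = 4.4e-13, limma). ABLIM1, an actin-binding gene, had -0.27 in KD and 0.43 in OE, both called. DPYSL5, of the collapsin response mediator family, fell by 0.76 in KD and 0.093 in OE, the latter not called without PAR replicate 2 (-0.076), OE replicate 1 (-0.086) or OE replicate 2 (-0.089). PTPN13, a phosphatase that binds B-type ephrins, rose by 0.71 and 0.16, the former 0.31 with block medians of genes at rlog 8 or more removed. LINGO1, a co-receptor of myelin inhibitors, had -0.095 in KD, not called, and rose by 0.59 in OE. MET, a kinase that associates with plexin B1, fell by 0.089 in KD and 0.40 in OE. By pathway, the netrin and DCC partners had 4 of 14 called higher and 9 lower in KD, the Eph and ephrin partners 2 and 7 of 14, the co-receptors of UNC5 and plexins 2 and 7 of 11, and the Slit and Robo partners 4 and 3 of 10. The semaphorin and plexin partners had 9 higher and 6 lower of 18, and the neogenin group 1 and 2 of 5.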

How the data were processed

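Total RNA of 9 libraries, 3 each from parental cells and cells labelled TRAP-1 knockdown or overexpression, was sequenced after TruSeq RNA v2 preparation, which does not mark the strand. The authors deposited rlog values on a log2 scale, and named cutadapt, HISAT2 with GRCh38, featureCounts of Subread and DESeq2, whose versions are not given in the sources used here. Per-library depth and read counts cannot be read from these values. Of 22290 Ensembl identifiers 22195 matched GENCODE release 44 and 95 did not, and the 3 summary columns named KD, OE and PAR hold no value. From the rlog values, limma 3.58.1 in R 4.3.3 was fitted to all 22290 genes and 9 libraries with a variance trend, with 3 comparisons, BH adjustment and a threshold of 0.05. The script was tested on simulated data.

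The members and lists were chosen with earlier results of these data known. Named with values in every library were the 12 largest members called with non-overlapping groups in each comparison with parental, the 8 largest in OE against KD, and members called in opposite directions. The 2 highest members per length in each of 9 families, known partners of these genes and the 5 largest partners per comparison were named too, except for results that are not reported here. Other members are named to account for all 64. Alternatives were no variance trend, centred libraries, quantile normalization, only the 6 libraries compared, a replicate block, a mean rlog of at least 5, removal of 20-Mb block medians, a difference over 0.5 and leaving out each library. SEMA4G, SEMA5B, EPHA10, EPHB6, EFNA4, UNC5A and NTN5 were not analysed here.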

Additional observations from a re-analysis of the deposited data

How the results depend on the processing

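Of 3639 values of named genes under alternatives, 3446 kept their direction and their side of the threshold, 66 lost a call, 51 gained one and 76 turned direction. Calls were unchanged under every alternative but that of a difference over 0.5 for 39 of the 51 guidance genes called in KD against parental, 33 of 39 in OE against parental and 28 of 37 in OE against KD. Asking for a difference over 0.5 as well left 1110 of all genes, 5 guidance genes higher and 6 lower and 11 partners in KD against parental, 200, 3, 2 and 2 in OE against parental, and 793, 5, 5 and 8 in OE against KD, fewer by construction.

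All turned directions that involve a call came from removing regional medians, and beyond that construction the cause was not tested. With 20-Mb block medians removed, KD against parental read -0.014 for EPHB3, 0.034 for NTNG2 and 0.13 for SEMA3B, and OE against KD read 0.015 for EPHB3, -0.18 for SEMA3B and -0.015 for SEMA4D. With block medians of genes at rlog 8 or more removed, an alternative chosen after seeing the data, KD against parental read -0.23 for EPHA5, -0.17 for EPHB3, 0.15 for NTNG2, 0.25 for SEMA3B and 0.074 for SEMA3F. OE against KD read 0.19 for EPHA5, 0.15 for EPHB3, -0.28 for SEMA3B, -0.040 for SEMA3F, -0.14 for SEMA4D and 0.063 for UNC5C. TRAP1 in OE against parental was called under this alternative alone, at 0.064 (BH-adjusted p = 0.0346, limma, and 0.277 to 0.999 under the others).

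Turns without a call on either side were of small differences, and their cause was not tested. With block medians of genes at rlog 8 or more removed, EFNA1 read 0.0036 in OE against KD, EPHA1 0.025 in KD, PLXNA3 -0.014 in OE against KD, PLXNB3 0.016 in KD, PLXNB3 0.029 in OE, PLXNC1 -0.055 in OE against KD, SEMA4C -0.030 in OE, SLIT1 0.012 in KD and UNC5D -0.022 in OE. After quantile normalization, EPHB3 read 0.0034 in OE, EPHB4 0.021 in OE, PLXNB3 0.016 in OE and SEMA4A -0.0037 in OE against KD. With 20-Mb block medians removed, EPHB3 read 4.1e-04 in OE and SEMA4C -0.0064 in OE. With libraries centred to 1 median, PLXNA3 read -0.0011 in OE against KD, PLXNB2 -0.0011 in KD, PLXNC1 -9.8e-04 in OE against KD, SEMA4A -0.0039 in OE against KD, SEMA4C -0.017 in OE, SEMA5A -0.0021 in OE, SLIT2 -0.0052 in OE against KD and TRAP1 -3.9e-05 in OE. Leaving out 1 library at a time, in KD EPHA1 ran from -0.033 to 0.012, PLXNA4 from -0.051 to 0.0096, PLXNB2 from -0.0030 to 0.022 and SLIT1 from -0.034 to 0.012. For OE, likewise, EPHB3 ran from -0.018 to 0.0041, EPHB4 from -0.027 to 0.010, PLXNB3 from -0.023 to 0.022, SEMA4C from -0.0062 to 0.012, SEMA6C from -0.060 to 0.013, SEMA6D from -0.014 to 1.7e-04 and UNC5D from -0.0062 to 0.080. In OE against KD, EFNA1 ran from -0.068 to 1.9e-05, EPHB2 from -0.015 to 6.5e-04, EPHB4 from -9.5e-04 to 0.043, PLXNA3 from -0.011 to 0.017, PLXNC1 from -0.0045 to 0.019, SEMA4A from -0.034 to 0.049 and SLIT2 from -0.0091 to 0.017.

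Leaving out each library in turn, all genes called ran from 11106 to 12030 in KD against parental, 6857 to 7762 in OE against parental and 9636 to 10575 in OE against KD. Guidance genes called higher ran from 23 to 26, 17 to 18 and 16 to 18, those called lower from 25 to 26, 20 to 23 and 18 to 21, and partners called from 61 to 68, 42 to 47 and 64 to 66, in the same order. TRAP1 ran from 0.13 to 0.15 in KD, -0.012 to 0.042 in OE and -0.15 to -0.097 in OE against KD. With a replicate block, 12015, 7854 and 10623 of all genes were called. Correlations of libraries with the same number ran from -0.046 to 0.10, and those with different numbers from -0.10 to 0.057. The highest were KD replicate 3 with OE replicate 3 (0.10) and KD replicate 1 with OE replicate 1 (0.086). Other pairs with the same number ran from -0.046 to 0.016, so these values do not settle whether the numbers pair libraries.

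Limits are that rlog values shrink differences at low level, that depth is not known from them, that nothing states whether the 3 libraries of a group are separate cultures, that TRAP1 RNA goes against the KD label and that some marker genes go against the cell label while others do not, and that the number of clones per line is not given.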
